A study of Mus musculus with 85 samples.

Results

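Mouse 2-cell embryos cultured without pyruvate were compared with 2-cell embryos in standard medium of the same age, 42 h after the injection of human chorionic gonadotropin (hCG) that sets the time of ovulation. The members were chosen by their titles and not by any measured value, though earlier results of these data were known, also when the gene lists were chosen. They are 4 libraries of embryos without pyruvate and 4 libraries of standard embryos, which are 8 of the 85 libraries in the series. All embryos were wild-type B6C3F1/J and were grown in KSOM, a defined medium for preimplantation embryos. The medium without pyruvate held 0 mM pyruvate, and standard medium held 0.2 mM; both held 5 mM lactate and 0.2 mM glucose. Values of 2-cell embryos without pyruvate at 48 h (5 libraries), standard embryos at 48 h (3 libraries) and standard embryos at 34 h (3 libraries) are set beside them where a result needs them. The labels used here do not say whether the libraries of a group came from separate cultures, so a p-value here covers no more than library-to-library spread, which may be technical.

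The early mouse embryo takes its energy from pyruvate and lactate and can use glucose only later. Pyruvate passes from the cytosol into mitochondria through the mitochondrial pyruvate carrier, where the pyruvate dehydrogenase complex turns it into acetyl-CoA, while lactate dehydrogenase interconverts lactate and pyruvate at the cost or gain of NADH. Over the same hours the 2-cell embryo clears the messenger RNAs left by the egg and starts to transcribe its own genome, first a short-lived set that includes Dux and the Zscan4 family and then a larger set that includes the genes for ribosomes. The libraries were made by Smart-seq2, which primes at the poly(A) tail, so a level is a share of polyadenylated RNA and moves with tail length as well as with amount. In such bulk libraries fewer cells of a type and less RNA per cell cannot be told apart.

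The depth that the values imply was 17.0 to 23.8 M reads (M, mega) in libraries without pyruvate and 11.3 to 18.7 M reads in standard libraries (exact permutation test, two-sided p = 0.0571, where 0.0286 is the smallest that 4 against 4 allows). Although deeper, the libraries without pyruvate held fewer genes above 1 CPM (counts scaled to a common library total), 13150 ± 191 against 14969 ± 213 in standard libraries (SD, n = 4 each, exact permutation p = 0.0286). The 100 most abundant genes took 48.6 ± 0.842% of the values without pyruvate and 41.2 ± 0.961% in standard embryos, beside 50.4 ± 2.00% in standard embryos at 34 h (SD, n = 4, 4 and 3). Library 3 of each group stood apart from its group: among 3834 genes above 20 CPM on average, library 3 without pyruvate was over 2-fold above all others of its group in 102 genes and over 2-fold below in 41, against 0 or 1 in the other libraries, and standard library 3 was above in 16 genes of 4988. The sharpest case was Zbed3, with 1694, 1242, 33932 and 3420 CPM without pyruvate and 4737, 3157, 5203 and 3338 CPM in standard embryos. Where a list's count moves by over 1.5 times without library 3 of the embryos without pyruvate, both counts are given, except that in other lists a count of 2 or fewer higher genes moved by at most 1. Markers of other cells were low in both groups. The summed level of 10 cumulus and granulosa markers was 9.98 to 14.1 CPM without pyruvate and 10.9 to 14.2 CPM in standard embryos, with 1 marker at 0 and 6 under 1 CPM in all 8 libraries. The summed level of 5 blood markers was 1.76 to 11.2 CPM without pyruvate and 7.64 to 12.1 CPM in standard embryos. The sum of 9 sperm markers, 40.2 to 93.8 CPM without pyruvate and 92.5 to 102 CPM in standard embryos, lay mostly in Odf2, a gene also transcribed outside sperm, and 2 of its markers were at 0. Trophectoderm and inner cell mass markers summed to 96.8 to 201 CPM without pyruvate and 164 to 183 CPM in standard embryos. The part of these markers in the results was not tested.

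Most differences were losses. Of 20737 genes tested by limma on log2(CPM + 1), 7623 (36.8%) passed a Benjamini-Hochberg adjusted p of 0.05, of which 1157 (5.58%) were higher and 6466 (31.2%) lower without pyruvate. The libraries of the groups did not overlap for 9091 genes (43.8%). Losses were also the deeper changes: 254 genes were at least 8-fold lower and 825 were 4- to 8-fold lower, against 4 and 32 genes that were higher by as much. The median change over all genes was −0.26 on the log2 scale, and every list below was read against that shift. The 20737 genes passed a filter over 9 groups at 34 to 55 h. In a fit of only the groups compared, 15208 genes were tested, of which 1483 were higher and 7181 lower, with a median of −0.39. Shares over the 20737 genes therefore lie under those among genes that passed the filter at 42 h. The split between higher and lower genes rests on scaling, since CPM values of a library sum to a constant: with median-ratio scaling 3413 genes (16.5%) were higher and 4380 (21.1%) lower, with quantile scaling 4341 (20.9%) were higher and 3895 (18.8%) lower, and after removal of the trend with gene length 4213 (20.3%) were higher and 3487 (16.8%) lower. A list whose direction turns under one of these scalings is named as such. Rose and fell stand below for higher and lower without pyruvate than in standard embryos of the same age, and not for change over time.

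Among the classes of level at 34 h, the share of genes that rose increased with level, while the share that fell was greatest at 10 to 100 CPM. Of 157 genes at 1000 CPM or more in standard embryos at 34 h, 56.1% were higher and 7.01% lower without pyruvate at 42 h. Of 8882 genes under 1 CPM at 34 h, 0.608% were higher and 26.4% lower. Between those ends the share that was higher dropped step by step, to 28.9% at 100 to 1000 CPM, 11.5% at 10 to 100 CPM and 3.91% at 1 to 10 CPM. The share that was lower in these classes was 19.9%, 37.6% and 35.9%. The filter spanned 9 groups at 34 to 55 h, and 15208 genes were tested in the fit of only the groups compared. The class under 1 CPM can therefore hold genes that were also low in both groups at 42 h. Such genes have little room to be called on log2(CPM + 1). The smaller share of falls in that class thus cannot be read as fewer losses, and the part of the filter was not tested. Against standard embryos at 34 h, 2383 genes (11.5%) were higher and 787 (3.8%) lower in embryos without pyruvate at 42 h, and 7974 (38.5%) were higher and 1386 (6.68%) lower in standard embryos at 42 h. These comparisons share libraries and are given side by side only.

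**Figure D1:**
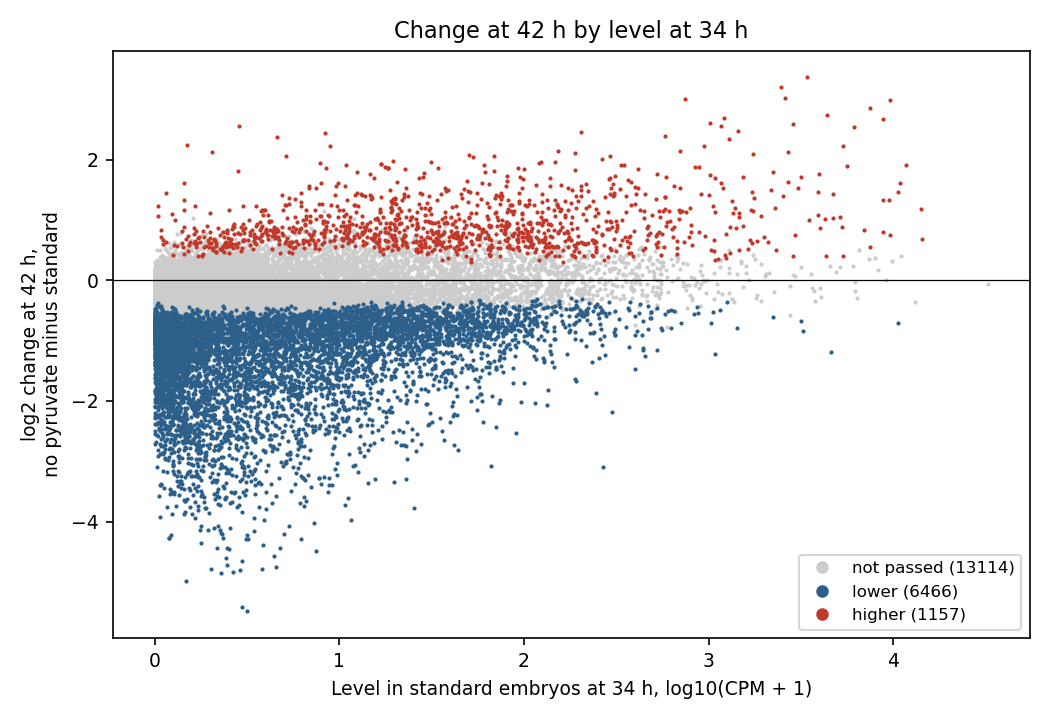
Change without pyruvate at 42 h for each of the 20737 genes tested (vertical axis, log2 of no pyruvate over standard, on CPM + 1) against its level in standard embryos at 34 h (horizontal axis, log10 of CPM + 1), coloured by call. The 1157 genes called higher lie more often to the right, at high levels at 34 h, and the 6466 called lower lie mostly under 100 CPM.

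Among 27 genes that handle pyruvate and lactate, 25 could be tested, and 4 rose (16%), 12 fell (48%) and 9 did not pass. Of all tested genes 5.58% rose and 31.2% fell. The median change of the list was −0.49 against −0.26 over all genes. In the fit of only the groups compared 4 rose and 13 fell, where 1483 of all 15208 genes rose and 7181 fell. The counts were 7 higher and 8 lower with median-ratio scaling, and 8 higher and 7 lower after removal of the length trend, where the median, 0.04, had the other sign. The lactate dehydrogenase genes moved in opposite directions. Ldha, whose product forms the muscle-type subunit, stood at 12.2, 10.9, 10.1 and 15.0 CPM without pyruvate and at 84.5, 81.8, 58.6 and 82.5 CPM in standard embryos. Ldhb, whose product forms the heart-type subunit that dominates in the egg, stood at 4183, 4436, 3602 and 3675 CPM without pyruvate and at 1272, 1093, 1713 and 882 CPM in standard embryos. Neither pair of groups overlapped, as was so for 43.8% of all tested genes. Ldha fell by 2.57 (SE 0.27, limma adjusted p = 9.44e-10) and Ldhb rose by 1.72 (SE 0.19, limma adjusted p = 3.75e-09) on the log2 scale. Set beside the 34 h level, Ldhb averaged 3974 ± 402 CPM without pyruvate at 42 h and 3183 ± 290 CPM in standard embryos at 34 h (SD, n = 4 and 3), while Ldha averaged 12.1 ± 2.13 CPM and 2.89 ± 0.278 CPM.

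Of the carriers, Slc16a1, Mpc1 and Mpc2 fell, and Slc16a3 and Slc16a7 did not pass. Slc16a1, the monocarboxylate transporter MCT1 that moves lactate and pyruvate across the cell membrane, was at 12.1, 9.51, 16.5 and 13.8 CPM without pyruvate and at 67.1, 74.1, 50.2 and 82.6 CPM in standard embryos, with no overlap (log2 change −2.32, SE 0.21, limma adjusted p = 2.83e-11). Both subunits of the mitochondrial pyruvate carrier were lower. Mpc2 held 7.12, 9.11, 9.35 and 8.40 CPM without pyruvate against 42.9, 52.3, 34.5 and 49.8 CPM in standard embryos. Mpc1 held 200, 226, 127 and 173 CPM without pyruvate against 320, 321, 264 and 315 CPM in standard embryos. The groups did not overlap for either gene, as was so for 43.8% of all tested genes. The change of Mpc2 (−2.26) was larger than that of Mpc1 (−0.77), and Mpc1 did not pass under some scalings. Basigin (Bsg), the chaperone of MCT1, held 16.0, 12.3, 35.6 and 20.0 CPM without pyruvate and 16.1, 16.9, 23.4 and 16.1 CPM in standard embryos, and did not pass on CPM as deposited (limma adjusted p = 0.76).

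Subunits of the pyruvate dehydrogenase complex parted by enzyme. The E1 subunits fell: Pdhb was at 44.0, 43.9, 33.6 and 40.8 CPM without pyruvate and 116, 119, 101 and 136 CPM in standard embryos (log2 change −1.52, SE 0.17, limma adjusted p = 3.87e-09), and Pdha1 changed by −0.94 (limma adjusted p = 5.63e-05), a call that some scalings did not keep. The other subunits rose: Dld, the E3 dehydrogenase shared with other complexes, was at 67.9, 66.2, 42.4 and 57.7 CPM without pyruvate and 26.6, 29.9, 36.0 and 27.9 CPM in standard embryos (log2 change 0.92, SE 0.18, limma adjusted p = 7.42e-05). Dlat, the E2 transacetylase, changed by 0.55, and Pdhx, which ties E3 to the core, by 0.63. No member of these 5 had overlapping groups, as was so for 43.8% of all tested genes. Among the regulators, the kinase Pdk1, which switches E1 off, fell by 1.21, and the phosphatase Pdp2, which switches it on, fell by 2.79. Pdk1 held 8.65, 7.04, 11.1 and 11.3 CPM without pyruvate and 20.1, 23.1, 22.6 and 26.7 CPM in standard embryos, and Pdp2 held 3.49, 2.88, 10.1 and 7.99 CPM without pyruvate and 38.7, 45.1, 40.6 and 51.0 CPM in standard embryos. Pdpr, the regulatory subunit of the phosphatase, fell by 1.08, a call lost with median-ratio and quantile scaling and after removal of the length trend. Ldhc, the testis form of lactate dehydrogenase, fell by 0.86 at a low level, a call lost under the same scalings and without library 3 of the embryos without pyruvate, 1.43 ± 0.634 CPM without pyruvate and 3.30 ± 0.623 CPM in standard embryos. Ldhd, Slc16a3, Slc16a7, Bsg, Pdk2, Pdk3, Pdp1, Me1 and Me2 did not pass on CPM as deposited, but Bsg, Me1 and Pdp1 were called higher with median-ratio scaling and after removal of the length trend, Slc16a7 with quantile scaling and after removal of the length trend, and Pdk3 was called lower in the fit of only the groups compared, and Pdha2 and Pdk4 were too low to test. The enzymes that draw pyruvate aside also fell: Gpt2, a mitochondrial alanine transaminase, by 1.14, and Pcx, pyruvate carboxylase, by 0.79 (limma adjusted p = 0.0211), a call lost without library 3 of the embryos without pyruvate and without standard library 1 or 4, and also with median-ratio and quantile scaling and after removal of the length trend.

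**Figure D2:**
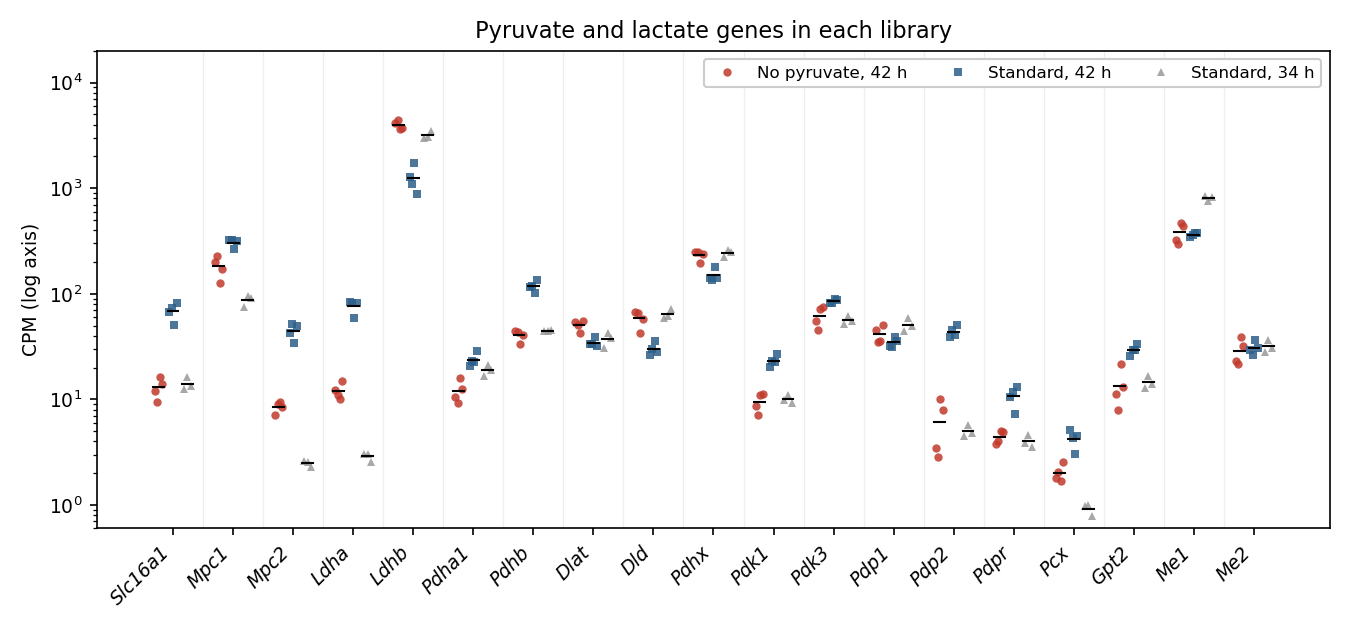
Level of each of 19 pyruvate and lactate genes (vertical, log axis, CPM) by library, with no pyruvate at 42 h left of standard at 42 h and standard at 34 h, and bars at the means. Ldha, Slc16a1, Mpc2 and Pdp2 are lower without pyruvate, and Ldhb, Dld, Dlat and Pdhx higher.

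The promoters of Ldha, Slc16a1 and Ldhb are shown since their products act on lactate directly and they moved in opposite directions. The windows run from 250 bases before to 50 bases after the annotated start, 300 bases from the RefSeq table for GRCm38.p6, 5′ to 3′ on the gene's own strand, with matches in capitals. Searched on both strands were CACGTG, the E-box bound by MYC-type factors, CCAAT, the NF-Y box, GCGCATGC, the NRF1 site, and TATAAA, the TATA box; no motif overlaps another in what is printed. Ldha lies at chr7:46845554-46845853 on the plus strand, Slc16a1 at chr3:104638414-104638713 on the plus strand, and Ldhb at chr6:142507908-142508207 on the minus strand.
Ldha: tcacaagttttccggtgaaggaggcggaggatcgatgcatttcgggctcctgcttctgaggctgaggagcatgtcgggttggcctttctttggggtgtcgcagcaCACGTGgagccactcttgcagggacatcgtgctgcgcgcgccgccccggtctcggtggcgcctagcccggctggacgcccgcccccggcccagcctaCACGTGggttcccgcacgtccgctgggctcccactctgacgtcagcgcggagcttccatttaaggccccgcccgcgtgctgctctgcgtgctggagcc
Slc16a1: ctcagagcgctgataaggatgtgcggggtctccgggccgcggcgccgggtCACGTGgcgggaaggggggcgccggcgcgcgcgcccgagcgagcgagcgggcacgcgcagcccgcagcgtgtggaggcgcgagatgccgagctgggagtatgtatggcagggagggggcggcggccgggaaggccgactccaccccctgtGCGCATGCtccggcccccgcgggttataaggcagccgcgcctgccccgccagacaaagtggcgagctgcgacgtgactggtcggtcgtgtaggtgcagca
Ldhb: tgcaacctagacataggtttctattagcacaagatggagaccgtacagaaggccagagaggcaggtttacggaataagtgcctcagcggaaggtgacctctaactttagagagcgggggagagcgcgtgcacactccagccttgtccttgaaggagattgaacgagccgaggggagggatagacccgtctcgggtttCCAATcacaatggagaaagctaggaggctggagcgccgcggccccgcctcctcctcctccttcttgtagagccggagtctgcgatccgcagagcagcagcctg

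Ldha held 2 E-boxes, and Slc16a1 held the E-box and the NRF1 site, while Ldhb held the NF-Y box. Of all 27025 genes in the table, 8.09% held the E-box, 41.1% the NF-Y box, 3.05% the NRF1 site and 15.7% the TATA box; of the 12774 tested genes with a window the shares were 11%, 43.1%, 5.25% and 10.3%. All 16 members called in the pyruvate and lactate list had a window, and of these 5 held the E-box (31.2%) and 8 the NF-Y box. Among called members that had a window, the E-box was in 6 of 14 translation genes (42.9%) and in 0 of 16 F-box and related genes, and the NF-Y box was in 11 of 12 genes of endoplasmic reticulum folding (91.7%) and in 12 of 15 replication genes (80%). These lists lie at the ends of the range among the lists examined. The E-box count was also 0 for decay, first-wave, pentose and hexosamine, replication, cell cycle and proteasome genes. F-box cluster promoters are close copies, so the 16 are not separate cases. A match says only that these letters lie in this window.

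Genes of neighbouring carbon routes did not all move one way, and are read against the 5.58% of all tested genes that rose and the 31.2% that fell. Of 20 glycolytic genes 0 rose and 11 fell (median −0.76), among them Pkm, pyruvate kinase, with 20.7, 16.1, 52.6 and 26.7 CPM without pyruvate and 71.3, 63.9, 71.6 and 71.7 CPM in standard embryos, and Pgam1, phosphoglycerate mutase (−1.72); with median-ratio scaling 1 rose and 6 fell. Of 20 tricarboxylic acid cycle genes 5 rose (25%) and 7 fell (35%, near the share of all genes), with a median of −0.06. With median-ratio scaling 8 rose and 3 fell, and the median turned to 0.43. Idh3g, a subunit of isocitrate dehydrogenase, fell (−2.92), and Fh1, fumarate hydratase, was at 23.6, 22.8, 25.2 and 20.5 CPM without pyruvate and at 6.03, 7.39, 12.1 and 6.96 CPM in standard embryos (1.44, SE 0.26, limma adjusted p = 2.80e-05). The malate dehydrogenases also parted. Mdh1, the cytosolic enzyme, changed by 0.89, and Mdh2, the mitochondrial enzyme, fell by 2.03 with 13.6, 12.2, 20.6 and 15.2 CPM without pyruvate and 64.1, 69.2, 56.9 and 69.3 CPM in standard embryos. Of 15 pentose phosphate and hexosamine genes 3 rose and 9 fell, and without library 3 of the embryos without pyruvate 1 rose and 7 fell. Prps1, which makes the ribose phosphate donor of nucleotides, was at 77.2, 101, 118 and 105 CPM without pyruvate and at 1516, 1516, 934 and 1428 CPM in standard embryos; the groups were far apart. Pgm3 and Uap1, late steps of UDP-N-acetylglucosamine synthesis, fell by 3.31 and 2.61. Of 25 nucleotide synthesis genes 2 rose and 16 fell (median −0.90); Ppat, the first committed enzyme of purine synthesis, was at 6.06, 5.25, 7.54 and 9.02 CPM without pyruvate and at 167, 163, 112 and 173 CPM in standard embryos, with Adsl (−3.09) and Impdh2 (−2.85) below it in the same route, while Adss, adenylosuccinate synthetase, rose by 0.66.

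Some of the egg's own messages were higher than in standard embryos of the same age, with the largest shares among F-box and oocyte factor genes. Set beside standard embryos at 34 h, the F-box list had a median log2 difference of −0.82 without pyruvate and −2.38 in standard embryos at 42 h. It was −0.92 and −1.51 for the subcortical maternal complex, −0.59 and −0.68 for meiosis and −0.02 and −0.98 for oocyte factors. For zona and oocyte-secreted factors it was −0.12 and 0.23. Of all tested genes 5.58% rose and 31.2% fell. Most members did not pass in the lists of the subcortical maternal complex (6 of 9), meiosis (8 of 14) and zona and oocyte-secreted factors (6 of 8). Of 29 members of F-box and other oocyte gene families 19 rose, 1 fell and 9 did not pass, with a median of 1.45. Of 9 subcortical maternal complex genes, which organise the egg cortex, 3 rose and 0 fell (median 0.21), and without library 3 of the embryos without pyruvate 3 rose and 2 fell. Ooep, a member of that complex, was at 566, 614, 317 and 387 CPM without pyruvate and at 72.7, 72.4, 191 and 54.8 CPM in standard embryos. Its groups did not overlap, as was so for 43.8% of all tested genes, and library 3 was the highest of the standard embryos. Of 11 oocyte transcription factor and linker histone genes 5 rose and 1 fell (median 0.41). Nobox, a factor of the growing oocyte, was at 207, 181, 259 and 214 CPM without pyruvate and at 74.8, 64.8, 99.7 and 67.1 CPM in standard embryos (1.49, SE 0.20, limma adjusted p = 1.11e-07). Of 14 genes of meiosis and the egg cell cycle 4 rose and 2 fell (median −0.01), and 5 rose and 0 fell with median-ratio scaling, where the median was 0.49. Pttg1, securin, was at 7833, 8966, 5462 and 6413 CPM without pyruvate and at 2620, 2538, 3380 and 2123 CPM in standard embryos, beside 4691 CPM at 34 h, so it was above the 34 h mean in each library without pyruvate. Rgs2, a regulator of G protein signalling, had the largest rise among the genes named by size (3.36, SE 0.36, limma adjusted p = 1.17e-09), with 1408, 1809, 1003 and 1357 CPM without pyruvate and 93.8, 97.2, 341 and 96.9 CPM in standard embryos. Mean levels in standard embryos at 34 h were 3424 CPM for Rgs2, 578 CPM for Ooep and 222 CPM for Nobox. Of 23 genes that deadenylate or decay maternal messenger RNA 3 rose and 10 fell (median −0.41), and 7 rose and 5 fell with median-ratio scaling, which turns the median to 0.11; Ythdf2, which marks methylated messages for decay, fell by 2.19, and Cnot10, a subunit of the CCR4-NOT deadenylase, by 2.03.

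A block of rises lay in a cluster on chromosome 9. Within chr9:109139447-109790670 (GRCm38) lie 15 Fbxw genes, all on the minus strand, which encode F-box proteins with WD repeats. 14 of the 15 rose without overlap, where 5.58% of all tested genes rose and 43.8% had no overlap. The median change was 2.6 on the log2 scale. Their summed level was 27404, 28867, 16075 and 18497 CPM without pyruvate and 3086, 3487, 5260 and 2667 CPM in standard embryos, beside a mean of 44645 CPM at 34 h. Fbxw23 alone did not pass: it held 280, 288, 144 and 204 CPM without pyruvate and 173, 197, 208 and 175 CPM in standard embryos, and it is annotated as a transcribed pseudogene. With median-ratio scaling Fbxw23 was called higher too (0.76, limma adjusted p = 0.0385), so the contrast with the other genes is one of size under that scaling. Since these genes are close copies, reads may be split or shared among them and the level of a single member is uncertain. The window was set after the largest rises were seen.

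Promoters are shown for the cluster, from 100 bases before to 50 after the start, 150 bases on the minus strand, to set 3 genes that rose beside Fbxw23, which did not pass on CPM as deposited. A run of 12 bases, GACTTAGGCCAC, is in capitals; it was chosen after the sequences were seen. Fbxw28 covers chr9:109339610-109339759, Fbxw15 chr9:109568213-109568362, Fbxw20 chr9:109234705-109234854 and Fbxw23 chr9:109543140-109543289, which lies upstream of the GENCODE gene.
Fbxw28: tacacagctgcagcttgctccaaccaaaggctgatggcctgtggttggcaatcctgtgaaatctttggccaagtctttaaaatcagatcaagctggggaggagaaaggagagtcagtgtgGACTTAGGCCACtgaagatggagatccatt
Fbxw15: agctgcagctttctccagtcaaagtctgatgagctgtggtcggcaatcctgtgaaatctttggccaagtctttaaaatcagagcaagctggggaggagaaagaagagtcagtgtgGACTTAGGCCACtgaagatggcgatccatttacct
Fbxw20: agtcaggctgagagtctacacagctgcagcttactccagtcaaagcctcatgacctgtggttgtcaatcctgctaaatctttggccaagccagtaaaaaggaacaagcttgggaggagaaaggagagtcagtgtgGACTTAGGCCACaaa
Fbxw23: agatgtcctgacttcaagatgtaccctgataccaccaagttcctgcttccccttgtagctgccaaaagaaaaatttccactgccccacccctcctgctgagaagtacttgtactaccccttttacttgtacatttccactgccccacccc

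The run is the longest shared by the 11 cluster promoters that had a window, leaving out Fbxw23. In the printed windows of Fbxw28, Fbxw15 and Fbxw20 it lies in the 50 bases after the annotated start, and not before it. Its presence in those 11, all of genes that rose, was thus fixed by the choice. It was in 11 of all 27025 genes of the table (0.0407%), and it was absent from the Fbxw23 window. The 11 promoters were 64.7 to 97.0% identical to each other (median 85.6%) over 55 pairs, and Fbxw23 was 41.5 to 47.4% identical to them. The Fbxw23 window lies upstream of the GENCODE gene, whose 5′ end is at chr9:109534858. It may therefore not be the counterpart of the other windows, and neither its low identity nor the missing run describes a matched promoter. For Fbxw28 itself the levels were 6584, 6989, 4107 and 4534 CPM without pyruvate and 604, 651, 1152 and 466 CPM in standard embryos (log2 change 3.00, SE 0.22, limma adjusted p = 1.18e-13).

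Falls among the largest lay in an array on chromosome 11. Within chr11:60560924-60693075 (GRCm38) 17 annotated Gm genes were tested, mostly pseudogenes. All 17 fell without overlap, where 31.2% of all tested genes fell and 43.8% had no overlap. Their median was −4.18 and their range −5.49 to −2.38. Their summed level was 92.7, 126, 149 and 128 CPM without pyruvate and 2908, 3143, 1979 and 2846 CPM in standard embryos, beside 18.7 CPM at 34 h. 12 of them are short copies that are 83.8 to 100% identical (median 98.7%), so their single levels are uncertain; Gm12614 and Gm12624 have the same sequence and the same values. Gm26837, a long non-coding RNA on the plus strand, overlaps minus-strand copies, and since the sources used here do not state whether counting used strand, these cannot be told apart. The window was set after the largest falls were seen.

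Gm12625, with the largest fall among the genes named by size, held 1.13 to 14.0 CPM without pyruvate and 240 to 340 CPM in standard embryos. Gm12622 held 1.98, 1.46, 7.13 and 4.79 CPM without pyruvate and 172, 156, 90.8 and 140 CPM in standard embryos. The last 102 bases of 4 copies, from GENCODE vM21 transcripts, show how alike they are, with the 6 positions that differ among them in capitals.
Gm12625: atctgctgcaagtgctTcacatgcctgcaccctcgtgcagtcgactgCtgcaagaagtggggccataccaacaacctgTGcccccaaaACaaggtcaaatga
Gm12622: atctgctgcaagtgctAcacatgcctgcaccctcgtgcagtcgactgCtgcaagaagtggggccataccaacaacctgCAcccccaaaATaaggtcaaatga
Gm12621: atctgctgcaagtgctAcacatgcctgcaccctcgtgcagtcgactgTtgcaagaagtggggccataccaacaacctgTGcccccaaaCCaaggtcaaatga
Gm12616: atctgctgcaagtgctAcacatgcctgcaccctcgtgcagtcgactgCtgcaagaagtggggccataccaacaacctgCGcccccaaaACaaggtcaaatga

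**Figure D3:**
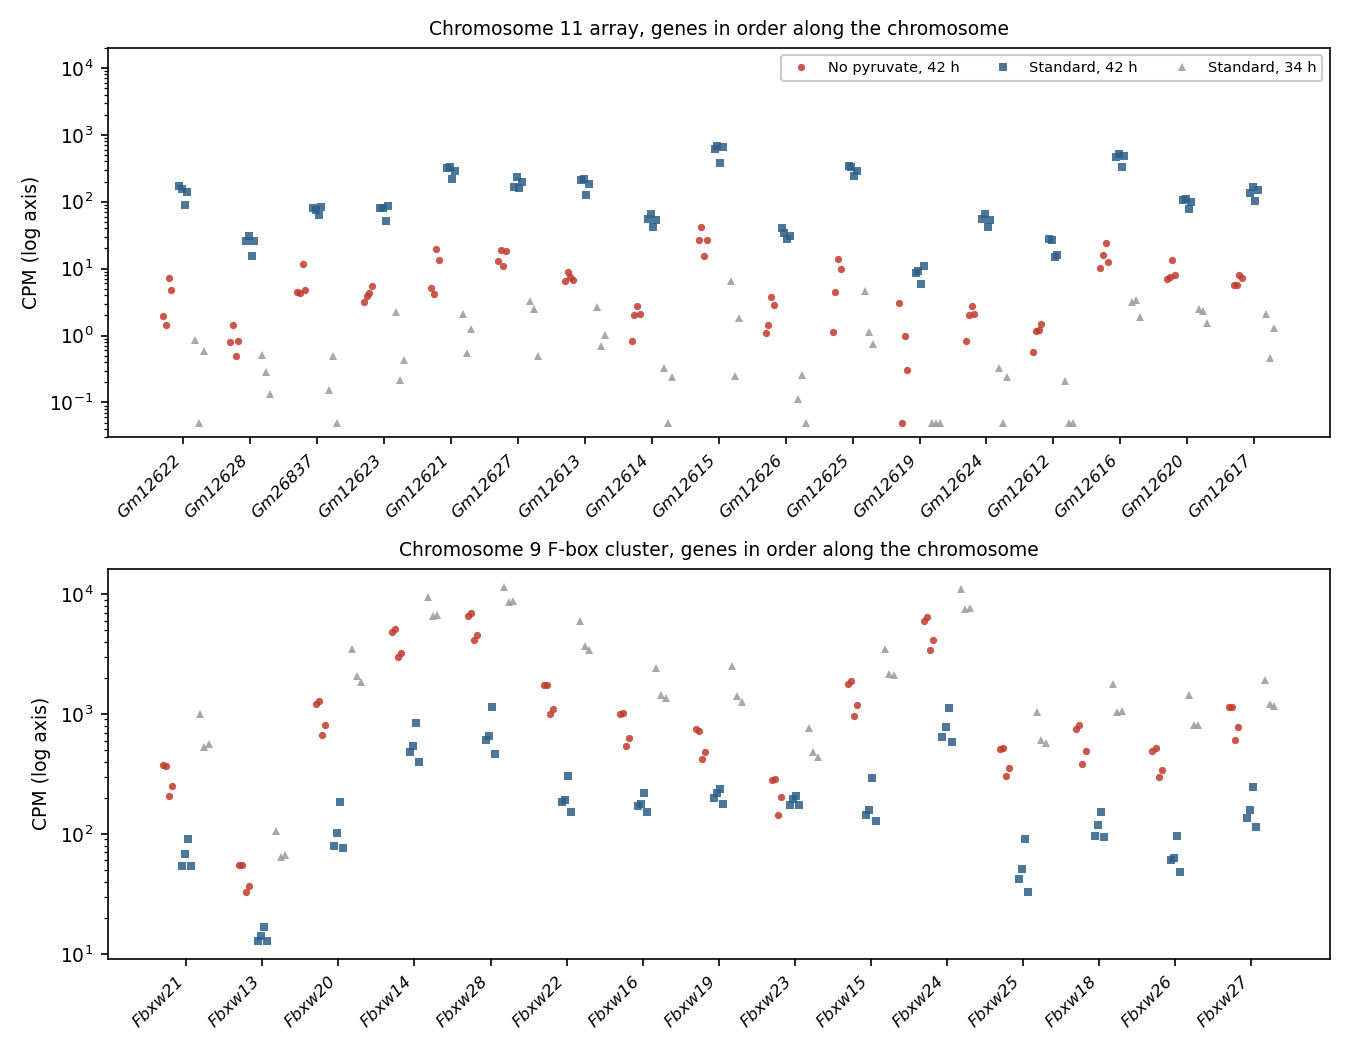
Level of each gene in the chromosome 11 array and the chromosome 9 F-box cluster (CPM, log axis) for each library, in chromosomal order, with values under 0.05 drawn at 0.05. In the array all libraries without pyruvate lie under the standard ones, and in the F-box cluster they lie above except at Fbxw23.

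Genes of the first wave of genome activation did not move alike, where 5.58% of all tested genes rose and 31.2% fell. Of 35 such genes 3 rose, 21 fell and 11 did not pass (median −0.98), and 6 rose and 15 fell with median-ratio scaling. All 6 Zscan4 genes, which mark the first wave, were among those that did not pass, though Zscan4c (0.87, limma adjusted p = 0.0177) and Zscan4d (0.77, limma adjusted p = 0.00864) were called higher with median-ratio scaling, and also after removal of the length trend. Zscan4f was at 1241, 1379, 885 and 1256 CPM without pyruvate and at 1226, 1456, 1003 and 1254 CPM in standard embryos, with overlapping groups (−0.06, SE 0.22, limma adjusted p = 0.891), beside a mean of 24.4 CPM at 34 h. Dux, the factor that turns on this group in mouse, listed as Duxf3, was higher, at 9.13, 9.19, 16.1 and 10.8 CPM without pyruvate and 3.04, 3.57, 3.52 and 3.92 CPM in standard embryos (1.42, SE 0.36, limma adjusted p = 0.00178). Duxf3 averaged 11.3 CPM without pyruvate at 42 h and 11.1 CPM in standard embryos at 34 h. The genes of the Tdpoz family, which have MATH and BTB domains, fell in all 5 cases, and Usp17l genes, which encode deubiquitinases, fell in 3 of 5. Tdpoz1 held 13.4, 9.39, 11.6 and 15.0 CPM without pyruvate and 154, 176, 123 and 179 CPM in standard embryos. Zfp352, a zinc finger gene, held 82.1, 83.5, 100 and 122 CPM without pyruvate and 547, 508, 405 and 490 CPM in standard embryos. Usp17lb held 29.6, 30.6, 27.8 and 45.1 CPM without pyruvate and 327, 360, 234 and 324 CPM in standard embryos. These 3 had no overlap between groups, like 43.8% of all tested genes. Over the whole list the median log2 difference from 34 h was 2.77 without pyruvate and 4.10 in standard embryos. The levels of single Zscan4, Tdpoz and Usp17l copies are uncertain since they resemble each other.

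At 48 h the same list looked otherwise: 18 of 35 rose and 4 fell without pyruvate (median 0.59), where 4677 (22.6%) of all tested genes rose and 7106 (34.3%) fell. The difference between the effects at 42 h and at 48 h passed for 6598 genes (31.8%), 2129 of them (10.3%) with the effect higher at 42 h and 4469 (21.6%) lower. In the first-wave list the effect was lower at 42 h for 25 of 35 genes and higher for 0. Zscan4f had 1104 ± 231 CPM without pyruvate and 249 ± 25.3 CPM in standard embryos at 48 h (SD, n = 5 and 3), and the effect at 42 h minus that at 48 h was −2.18 (SE 0.32, limma adjusted p = 2.75e-06). Zfp352 differed between ages by −3.07 (SE 0.42, limma adjusted p = 1.18e-06), and Tdpoz1 by −2.81 (SE 0.34, limma adjusted p = 1.58e-07). The same test gave −2.23 for Ldha (limma adjusted p = 4.60e-05), which was at 51.8 ± 11.5 CPM without pyruvate and 65.0 ± 6.47 CPM in standard embryos at 48 h, −1.57 for Slc16a1 (limma adjusted p = 0.000159) and −0.87 for Ldhb (limma adjusted p = 0.0153). For Duxf3 the test did not pass (0.36, limma adjusted p = 0.65).

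**Figure D4:**
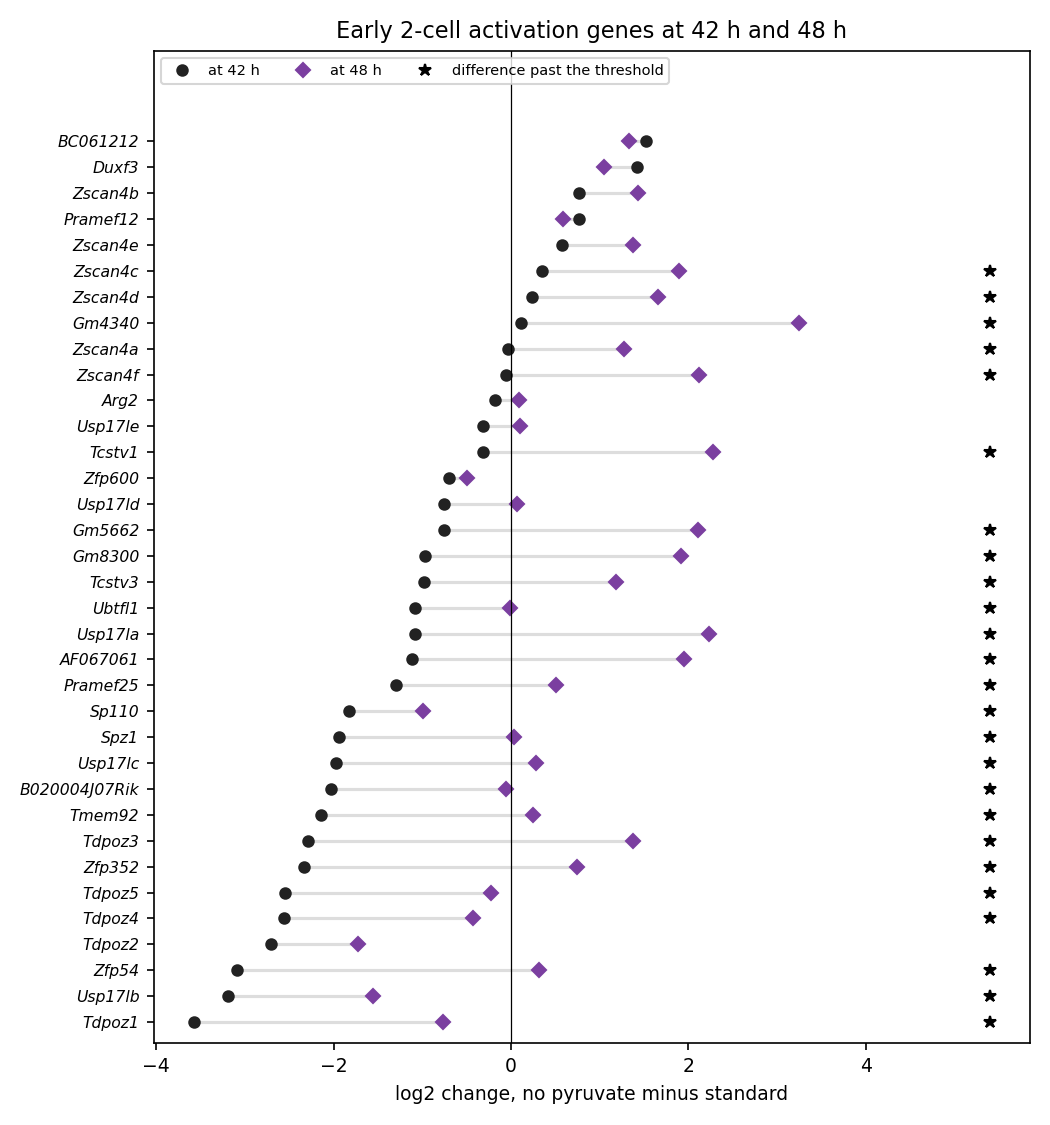
Log2 change without pyruvate at 42 h and at 48 h for the 35 first-wave genes, with a star where the difference between ages passed. At 42 h 21 genes fell and at 48 h 18 rose, and 25 carry a star.

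Later transcription factors fell more often than the 31.2% of all tested genes, of which 5.58% rose. Of 29 factors of genome activation and totipotency 3 rose and 20 fell (median −0.87). Gabpa, an ETS factor, held 13.5, 9.89, 14.8 and 13.8 CPM without pyruvate and 236, 270, 197 and 292 CPM in standard embryos (−4.16, SE 0.17, limma adjusted p = 3.77e-19). Dppa4, a chromatin factor of pluripotent cells, held 5.18, 5.99, 5.00 and 7.70 CPM without pyruvate and 62.2, 65.8, 43.7 and 70.4 CPM in standard embryos. Klf17, a factor abundant in the egg, rose: 1665, 1244, 3002 and 2184 CPM without pyruvate against 903, 938, 1179 and 869 CPM in standard embryos, a call that quantile scaling did not keep. Of 7 Obox homeobox genes 3 rose and 3 fell. Obox1, Obox2 and Obox7, with means of 9528, 3930 and 3038 CPM at 34 h, rose by 1.34, 1.09 and 1.53, and Obox3, Obox6 and Obox8, with 40.8, 3.14 and 1.10 CPM at 34 h, fell by 2.73, 3.06 and 4.10. Obox6 held 27.4, 25.6, 30.2 and 28.9 CPM without pyruvate and 243, 280, 188 and 264 CPM in standard embryos. The Obox copies resemble each other, so single levels are uncertain.

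The machinery of transcription and translation was lower as well, beside 31.2% of all tested genes that fell and 5.58% that rose. Of 30 genes of RNA polymerase II and elongation 3 rose and 19 fell (median −0.70). Gtf2f1, a subunit of TFIIF, held 2.80, 2.29, 5.83 and 4.28 CPM without pyruvate and 36.8, 37.2, 30.9 and 39.9 CPM in standard embryos, while Polr2g rose by 1.20. Of 23 genes of RNA polymerases I and III 0 rose and 19 fell (median −1.41), with Polr1e at 2.95, 2.29, 4.44 and 3.41 CPM without pyruvate and 46.5, 48.2, 40.0 and 64.2 CPM in standard embryos. Of 36 ribosome biogenesis genes 2 rose and 33 fell (median −1.63). Nop16 fell by 4.07 and Nhp2, a snoRNA-binding protein, by 3.24, while Npm1, nucleophosmin, abundant at 34 h, rose by 0.77 with 558, 689, 397 and 566 CPM without pyruvate and 303, 328, 321 and 318 CPM in standard embryos. Of 56 ribosomal protein genes 0 rose and 50 fell (median −1.62); the 6 that did not pass were Rpl11, Rpl15, Rpl32, Rplp2, Rps12 and Rps15a, and 43 still fell with median-ratio scaling. Ribosomal protein genes have many processed copies, so single levels are uncertain. Of 27 translation factors 4 rose and 14 fell (median −0.50), against 7 and 10 with median-ratio scaling and a median of 0.02 after removal of the length trend. Eif5, which activates GTP hydrolysis at the start codon, was at 72.7, 62.9, 84.9 and 96.9 CPM without pyruvate and at 674, 720, 583 and 739 CPM in standard embryos, and its mean without pyruvate, 79.3 CPM, lay under its 34 h mean of 267 CPM.

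Stress and protein folding lists are read against the 31.2% of all tested genes that fell and the 5.58% that rose. Of 19 integrated stress response genes 0 rose and 9 fell (median −0.67), with Trib3, a pseudokinase of that response, at 1.18, 1.06, 2.56 and 2.65 CPM without pyruvate and at 18.4, 16.8, 16.5 and 20.2 CPM in standard embryos. Of 20 endoplasmic reticulum folding genes 1 rose and 14 fell (median −0.66); Hspa5, the main chaperone of the endoplasmic reticulum, fell by 2.35 and Dnajb9, its cochaperone, by 3.07. Of 24 glutathione and antioxidant genes 3 rose and 11 fell, against 6 and 7 with median-ratio scaling. Sod1, cytosolic superoxide dismutase, was at 204, 201, 222 and 206 CPM without pyruvate and at 56.2, 50.5, 93.1 and 65.7 CPM in standard embryos, beside 289 CPM at 34 h. Prdx4, a peroxiredoxin of the endoplasmic reticulum, was at 3.63, 3.82, 3.98 and 5.34 CPM without pyruvate and at 68.1, 69.7, 42.2 and 69.4 CPM in standard embryos. Those antioxidant genes moved in opposite directions. Neither had overlapping groups, as was so for 43.8% of all tested genes. Of 19 cytosolic heat shock genes 1 rose, Hsp90aa1, a call lost without library 2 of the embryos without pyruvate, and 9 fell, among them Hspa8 (−2.17); with median-ratio scaling 5 rose and 9 fell. Of 20 genes of energy sensing by AMPK and mTORC1 0 rose and 8 fell (median −0.38, turning to 0.10 with quantile scaling), with 4 and 6 under median-ratio scaling; Prkab1, an AMPK subunit, fell by 1.81. Against the same 31.2%, 40% of the energy sensing genes fell, 35.7% of the NAD genes and 23.1% of the MYC and MAX genes. In the fit of only the groups compared 7181 of 15208 genes fell, and 10, 8 and 5 members of these lists. Of 13 genes of the MYC and MAX network 1 rose and 3 fell (median −0.48, turning to 0.12 with quantile scaling), and without library 3 of the embryos without pyruvate 0 rose and 5 fell. Of 14 NAD genes 1 rose and 5 fell and of 13 malate shuttle genes 1 rose and 6 fell, lists whose medians of −0.48 and −0.45 turned to 0.04 and 0.08 after removal of the length trend, and of 8 zona and oocyte-secreted factors 1 rose and 1 fell, against 4 and 0 with median-ratio scaling.

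Mitochondrial lists differed among themselves, beside 31.2% of all tested genes that fell and 5.58% that rose. The 13 mitochondrially encoded genes had a median of −0.57, 0 rose and 8 fell; with median-ratio scaling 3 fell and with quantile scaling 12 fell. Together they were 4.72 ± 0.436% of values without pyruvate and 6.79 ± 0.538% in standard embryos (SD, n = 4 each, exact permutation p = 0.0286), beside 3.27 ± 0.473% at 34 h. mt-Nd3, a complex I subunit, held 161, 140, 121 and 169 CPM without pyruvate and 353, 409, 374 and 472 CPM in standard embryos. Of 45 nuclear respiratory chain genes 5 rose and 18 fell (median −0.28, near the −0.26 of all genes), and the count turned to 15 higher and 13 lower, with a median of 0.21, under median-ratio scaling; without library 3 of the embryos without pyruvate 8 rose and 16 fell. Ndufa8 rose (20.3, 26.7, 13.8 and 15.2 CPM without pyruvate against 4.61, 2.86, 5.78 and 2.93 CPM in standard embryos), and Uqcrfs1, the Rieske protein of complex III, fell by 2.21. Of 24 mitochondrial import and chaperone genes 1 rose and 14 fell (median −0.66). Tomm20, an import receptor of the outer membrane, held 7.72, 7.95, 9.54 and 9.14 CPM without pyruvate and 106, 127, 82.1 and 123 CPM in standard embryos.

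Replication, cell cycle and chromatin lists held 55.6%, 44.4% and 44.4% of members that fell, against 31.2% of all tested genes. In the fit of only the groups compared 7181 of 15208 genes fell, and 15, 16 and 13 members of these lists. Of 27 replication genes 2 rose and 15 fell (median −0.52), against 6 and 7 with median-ratio scaling, and the median turned to 0.06 with quantile scaling. Rpa2, a subunit of the single-strand binding protein, fell by 3.40. Rfc3, a clamp loader subunit, rose by 2.05 with 46.9, 51.2, 27.1 and 39.4 CPM without pyruvate and 8.77, 7.54, 14.2 and 6.54 CPM in standard embryos. Orc1, the largest subunit of the origin recognition complex, was at 9.99, 5.90, 12.7 and 12.2 CPM without pyruvate and at 50.1, 55.0, 50.4 and 52.3 CPM in standard embryos, beside 33.9 CPM at 34 h. Of 27 cell cycle regulators 2 rose and 12 fell (median −0.46, turning to 0.08 with quantile scaling), among them Ccne1, cyclin E1, with 12.7, 11, 34.0 and 20.1 CPM without pyruvate and 254, 257, 174 and 269 CPM in standard embryos, and Cdc25c, a phosphatase that opens mitosis (−3.32). Of 27 chromatin enzymes that use 2-oxoglutarate or acetyl-CoA 2 rose and 12 fell (median −0.53), with 6 and 8 under median-ratio scaling and a median of 0.03 with quantile scaling. Kdm5b, a histone H3 lysine demethylase, was at 12.0, 12.3, 12.2 and 12.1 CPM without pyruvate and at 71.7, 78.2, 59.4 and 82.2 CPM in standard embryos. Kdm2a rose, at 215, 185, 113 and 113 CPM without pyruvate and 69.4, 64.4, 73.0 and 71.8 CPM in standard embryos, beside 43.2 CPM at 34 h.

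Protein turnover genes parted, beside 31.2% of all tested genes that fell and 5.58% that rose. Of 23 autophagy and lysosome genes 1 rose and 16 fell (median −1.16). Map1lc3b, which coats the autophagosome, was at 82.5, 82.8, 103 and 88.5 CPM without pyruvate and at 783, 878, 577 and 830 CPM in standard embryos. Of 31 proteasome genes 8 rose and 12 fell at 42 h (median −0.15), and the direction of the median turned to 0.37 with median-ratio scaling, where 14 rose and 11 fell. Psmb2, a subunit of the core, rose by 1.69 with 395, 460, 245 and 289 CPM without pyruvate and 96.0, 96.8, 160 and 77.1 CPM in standard embryos. Psmb5, the subunit with chymotrypsin-like activity, fell by 3.23. At 48 h 1 proteasome gene rose and 22 fell, where 22.6% of all tested genes rose and 34.3% fell. The effect was higher at 42 h than at 48 h for 20 of 31 genes and lower for 1, against 10.3% and 21.6% of all tested genes.

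**Figure D5:**
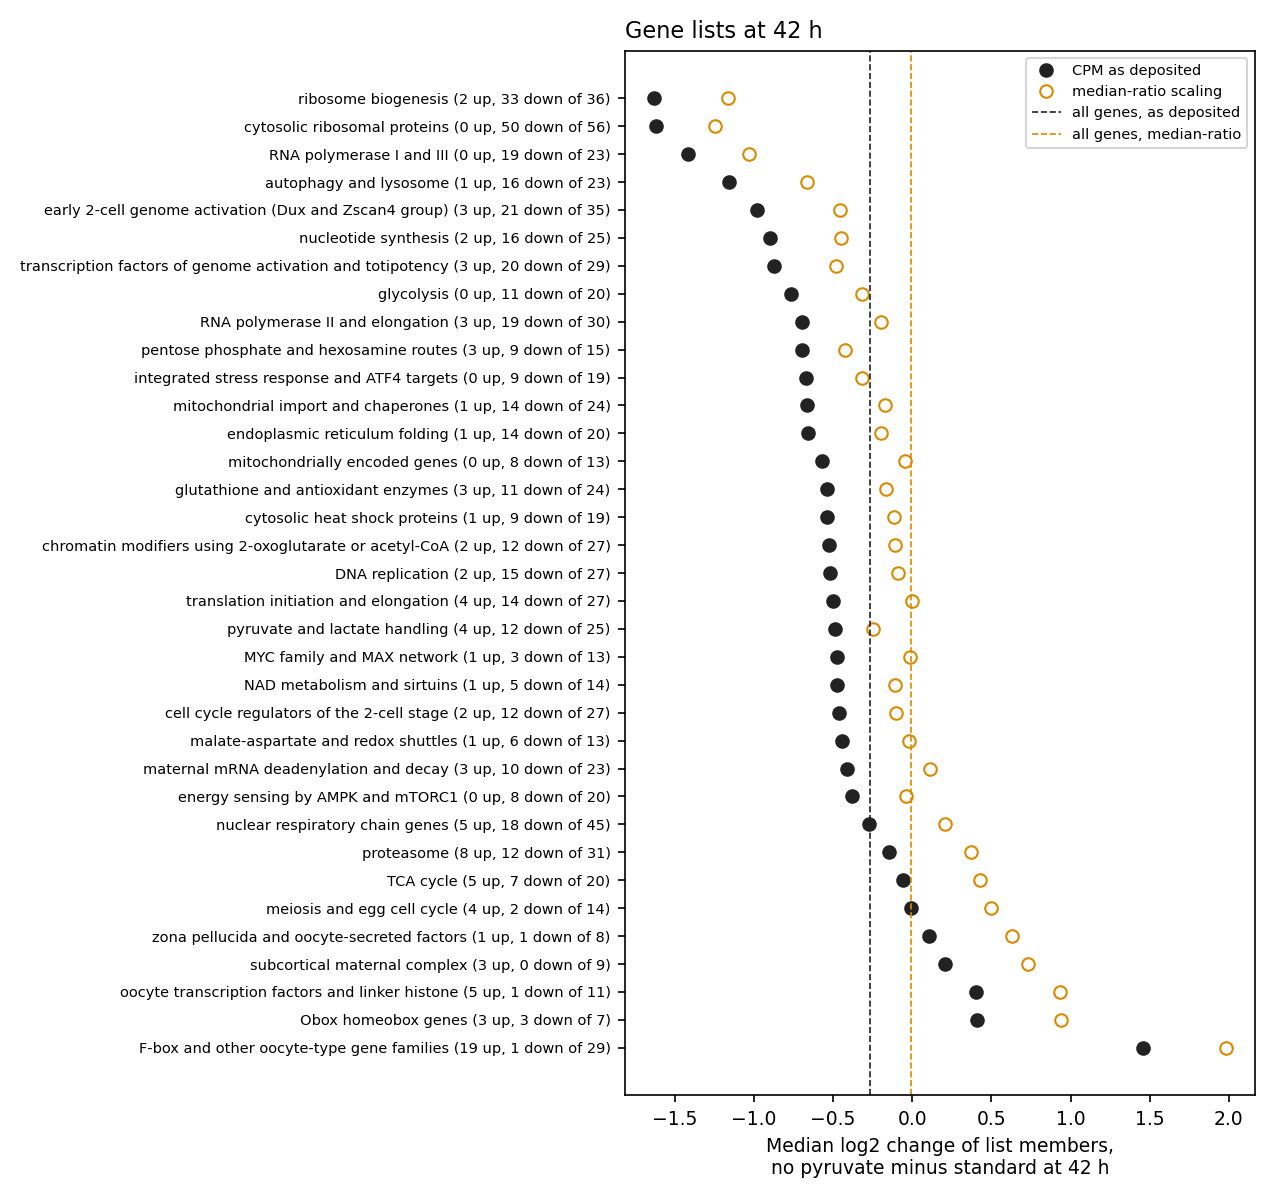
Median log2 change without pyruvate of each list (horizontal axis) on CPM as deposited and after median-ratio scaling, with dashed lines at the medians over all genes. Ribosome, RNA polymerase I and III and autophagy lists stand below both lines, and the F-box list stands above them.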

How the data were processed

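RNA of mouse embryos was sequenced by Smart-seq2, and the authors deposited a table of CPM (counts scaled to a common library total) per gene and library. The submitters' processing notes name STAR 2.6.1d and the build mm10; the counting tool and its use of strand are not given in the sources used here. 85 of the table's 91 columns matched a sample label, and 6 were not used. Genes above 1 CPM in at least 3 of the 34 libraries at 34 to 55 h (9 groups) were fitted with limma 3.58.1 (R 4.3.3) on log2(CPM + 1), with a trended prior, 25 residual degrees of freedom and Benjamini-Hochberg adjustment at 0.05; a log2 change on this scale understates that of low genes. Single values were compared by exact permutation. Depth was inferred from the step of the values, and whole reads were recovered for 76.2 to 78.1% of low values, too few for a count test. Counting error by itself gives 20.5 to 29.8% relative SD at 1 CPM. Entries with a number for a name, 26 in all, were left out and held 0.0514 to 0.0846% of the values. Promoters came from RefSeq (GRCm38.p6) and pseudogenes from GENCODE vM21. Scripts ran in Python 3.11.15 (scipy 1.17.1, numpy 2.4.6, matplotlib 3.10.9, pandas 2.3.3).

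Named genes were drawn from the 8 largest rises and 8 largest falls without overlap at 20 CPM or more, all pyruvate and lactate genes, and up to 4 per other list. Not every gene so chosen is printed with its levels. The members and lists were chosen with earlier results of these data known. Alternatives were other pseudocounts, filters, scalings, samples in the fit, a replicate block and each library left out. Comparisons of the chromosome 11 array with other genes are not reported here.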

Additional observations from a re-analysis of the deposited data

Results flagged for a closer look

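Within groups of 4, 27 of 294 gene-and-group pairs had a highest or lowest library whose gap to the next, divided by the group's whole range, was above Dixon's 95% critical value for 4; chance flags about 1 in 20 groups. 19 lay in standard embryos, 17 of them in library 3, and 8 in embryos without pyruvate, 5 of them in library 3. In embryos without pyruvate, library 3 was high for Zar1 (0.875), Cnot3 (0.854), Ogdh (0.837) and Zbed3 (0.933) and low for Rfpl4b (0.882), library 4 was high for Usp17lb (0.839), and library 1 was high for Ndufs8 (0.856) and Cyp19a1 (0.844). In standard embryos, library 3 was high for Rgs2 (0.986), Ooep (0.869), Nlrp9b (0.901), Nlrp4f (0.844), Obox2 (0.852), Polr2g (0.880), Bsg (0.889), Pdhx (0.866) and Cyp19a1 (0.899). It was low for Ldha (0.896), Mpc1 (0.898), Prps1 (0.849), Uap1 (0.861), Ppat (0.836), Prdx4 (0.942), Dnajb9 (0.842) and Ccne1 (0.843), while library 2 was high for Zscan4c (0.844) and low for Pkm (0.943). For Zbed3 the log2 change was −0.02 (limma adjusted p = 0.988) and −1.06 without library 3 of the embryos without pyruvate (limma adjusted p = 0.0215).

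The effect of leaving out pyruvate differed between 42 h and 48 h, by the limma test of the difference, for 6598 genes. Among those named, the effect at 42 h minus that at 48 h was 0.94 for Fbxw28 (limma adjusted p = 0.0206), 1.97 for Psmb2 (limma adjusted p = 5.02e-06), −1.42 for Zscan4d (limma adjusted p = 0.00153), −2.18 for Zscan4f (limma adjusted p = 2.75e-06), −3.07 for Zfp352 (limma adjusted p = 1.18e-06) and −2.81 for Tdpoz1 (limma adjusted p = 1.58e-07). It was −1.64 for Usp17lb (limma adjusted p = 0.00294), −2.18 for Gabpa (limma adjusted p = 5.92e-08), −2.23 for Ldha (limma adjusted p = 4.60e-05), −0.87 for Ldhb (limma adjusted p = 0.0153) and −1.57 for Slc16a1 (limma adjusted p = 0.000159). The call of Fbxw28 was lost without a filter, with quantile scaling and without some libraries. The call of Ldhb was lost with median-ratio scaling, after removal of the length trend and without standard library 3 at 42 h, and that of Usp17lb with quantile scaling.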

How the results depend on the processing

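The count of genes called was 7623 and stayed within 1.5 times under all alternatives, but the number of higher genes was 3413 with median-ratio scaling, 4341 with quantile scaling, 4213 after removal of the length trend and 3346 with median-ratio scaling of only the groups compared, and the number of lower genes was 3895 with quantile scaling and 3487 after removal of the length trend. The median change of all genes was −0.48 with a pseudocount of 0.1, −0.041 without a filter, −0.0081 with median-ratio scaling, −0.39 in a fit of only the groups compared and −0.034 with both, and it turned to 0.090 with quantile scaling and to 0.23 after removal of the length trend. Leaving out each library in turn gave 6643 to 7584 calls, 926 to 1313 higher, 5667 to 6271 lower, a median of −0.279 to −0.246 and 5515 to 6540 calls for the difference between ages. The replicate block gave 8811 calls and a median of −0.39. Same-numbered libraries correlated by −0.0527, 0.172, 0.0871 and 0.0671 in their deviations, and differently numbered libraries by −0.15 to 0.117. These values do not settle whether the numbers pair the libraries. Of 147 genes examined 124 kept their call under all alternatives, and 0 reversed; the calls of Ldhc, Mpc1, Pdha1, Pdpr, Pcx, Ogdh, Odf2, Cdc20 and Klf17 were lost under at least 1, G6pdx was lost without library 3 and Hsp90aa1 without library 2 of the embryos without pyruvate. Zscan4c, Zscan4d, Fbxw23, Bsg, Me1, Pdp1, Slc16a7, Pdk3, Bmp15, Cyp19a1 and Ubb gained a call under at least 1, and Zbed3 without library 3 of the embryos without pyruvate. The cause was not tested. The added alternative, median-ratio scaling of only the groups compared, was chosen after seeing the data. Depth limits low genes: 1 CPM stood for 11.3 to 23.8 reads.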
